A study of Mus musculus with 29 samples.

Results

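The axon guidance ligands and receptors described here are the genes of 9 families of secreted cues, membrane-bound cues and their receptors, as they were expressed in the tibialis anterior (TA) muscle of ageing mice. Members were chosen by symbol: ephrins (Efn) and their Eph receptors, semaphorins (Sema) and the plexins (Plxn) and neuropilins (Nrp) that bind them, netrins (Ntn) and Unc5 receptors, and Slit ligands and Robo receptors. The rule found 68 of the 22537 gene symbols counted, namely 14 Eph receptors, 8 ephrins, 20 semaphorins, 9 plexins, 2 neuropilins, 4 netrins, 4 Unc5 receptors, 3 Slits and 4 Robo receptors. All mice were untreated C57BL/6 males from an ageing colony, with no transgene or deletion, and poly-A RNA was taken from the whole muscle, a fast-twitch muscle of the lower leg, after the mice had been tested for physical function. The first sequencing run held 7 mice of 6 months (6m) and 7 of 24 months (24m). In the second run the 7 young mice were sequenced again from new libraries, together with 8 mice labelled as 28 months or older (28m). Because the old groups were in different runs, each was compared with the 6m libraries of its own run.

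Axon guidance cues steer growing axons by attraction or repulsion, and many act on other cells as well. Slits repel cells that carry Robo receptors, secreted class 3 semaphorins signal through complexes of neuropilins and class A plexins, and ephrins on one cell bind Eph receptors on its neighbour, with signals passing in both directions. In muscle these families are known from motor nerve terminals and their Schwann cells, from blood vessels, where Nrp1, Plxnd1, Ephb4, Unc5b and Robo4 are expressed in endothelium, and from myogenic cells.

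Library totals were between 17633475 and 33499162 counts with a median of 24250878, and the members together held 0.0395% to 0.0939% of them. A pair of libraries of the first run stood apart. The 6m replicate 4 differed between its own libraries by an SD of 0.617 across genes on the log2 scale, against 0.237 to 0.282 for the other 6 mice, and the 24m replicate 4 had the lowest share of counts in the members (0.0395%). Counts and medians of the first run are therefore also given without them. Of neuron markers, Snap25, Syt1, Slc18a3 and Chat had at most 3 counts in every library. The myofibre markers Acta1, Ckm, Myh1, Myh4, Tnnt3 and Ttn summed to 143000 to 176000 CPM across the libraries of the second run. CPM are read counts scaled to a common library size, by TMM.

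Levels of the members ran over several orders of magnitude. Per kilobase of exons and averaged over all 29 libraries, Sema6c, a transmembrane semaphorin, was the highest at 19.2 CPM per kb. It was followed by the immune and vascular semaphorin Sema4d (8.29), the secreted Sema3c (8.19), the semaphorin and VEGF co-receptor Nrp1 (7.81), the endothelial plexin Plxnd1 (7.80) and the ephrin Efna1 (7.21). The order below Sema6c differed between groups, and in the 28m libraries alone Efna1 came next (8.39), while Sema4d (5.81) lay below Sema3c (6.76) and Nrp1 (6.54). Over all libraries, the netrin receptor Unc5a stood at 5.89 CPM per kb, the membrane-anchored Sema7a at 5.85, the ephrin-B2 receptor Ephb4 at 4.47 and the endothelial receptor Robo4 at 3.48. Within the Robo and Unc5 receptors the levels were uneven, where the length of a gene is that of all its annotated exons merged. Robo4 was far above Robo1 (0.0772 CPM per kb) and Robo2 (0.0325), and Unc5a and Unc5b (1.29) were far above Unc5d (0.00567) and Unc5c (0.00283). At the other end, Epha6, Epha8, Epha10 and Robo3 had at most 3 counts in every library and were not compared.

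**Figure D1:**
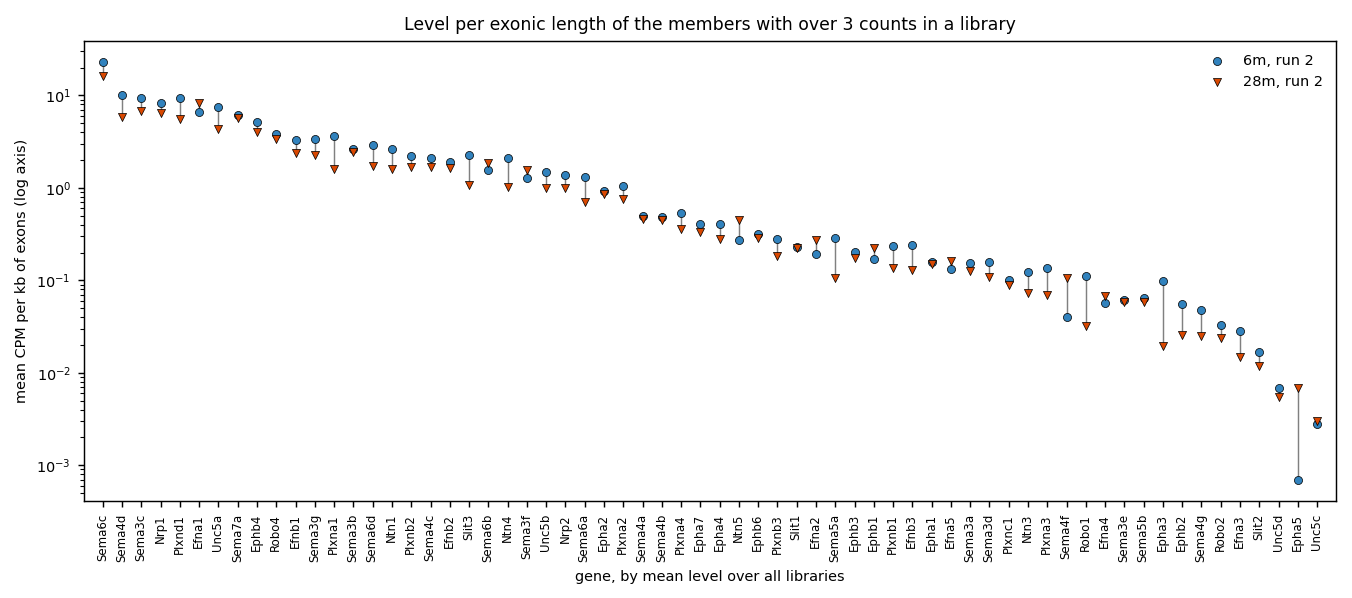
Mean level of each member with more than 3 counts in any library, in CPM per kilobase of exons on a log axis, ordered by the mean over all libraries. Circles are the 7 libraries at 6m and triangles the 8 at 28m of the second run. The triangle lies below the circle for most members, and the largest gaps downward are those of Epha3, Robo1 and Sema5a.

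At 28m, the axon guidance genes tested mostly had log2 fold changes below 0 against 6m, though not all of these passed. Of 55 members with enough counts to be tested by edgeR's quasi-likelihood test, 27 had fallen with an adjusted p under 0.05 and 1, Ntn5, had risen. Over all 12994 genes tested, 22.9% were called lower and 24.3% higher, so calls among all genes were nearly balanced while those of the members were not. The median log2 fold change of the tested members was -0.484, against 0.009 for all genes, and 48 of the 55 values were below 0. With the further limit of an absolute log2 fold change of 1, 6 members were DEGs, all lower, against 5.7% of all genes: the receptor tyrosine kinase Epha3, the Slit receptor Robo1, the ligand Slit3, the transmembrane Sema5a, the semaphorin receptor Plxna1 and the basement membrane netrin Ntn4. On GRCm38 their gene models span chr16:63543534-63864175 for Epha3, chr16:72308306-73046095 for Robo1, chr11:35121224-35708507 for Slit3, chr15:32244810-32696341 for Sema5a, chr6:89316314-89362620 for Plxna1 and chr10:93640681-93747207 for Ntn4. In 7 members every 28m library lay below every 6m library of the run (Epha3, Robo1, Slit3, Sema5a, Plxna1, Sema3c and Sema6d), in 0 members did all lie above, and 6.18% of all genes tested were separated downward and 6.21% upward. Whole muscle was sequenced, so fewer cells of a type and less RNA per cell cannot be told apart.

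**Figure D2:**
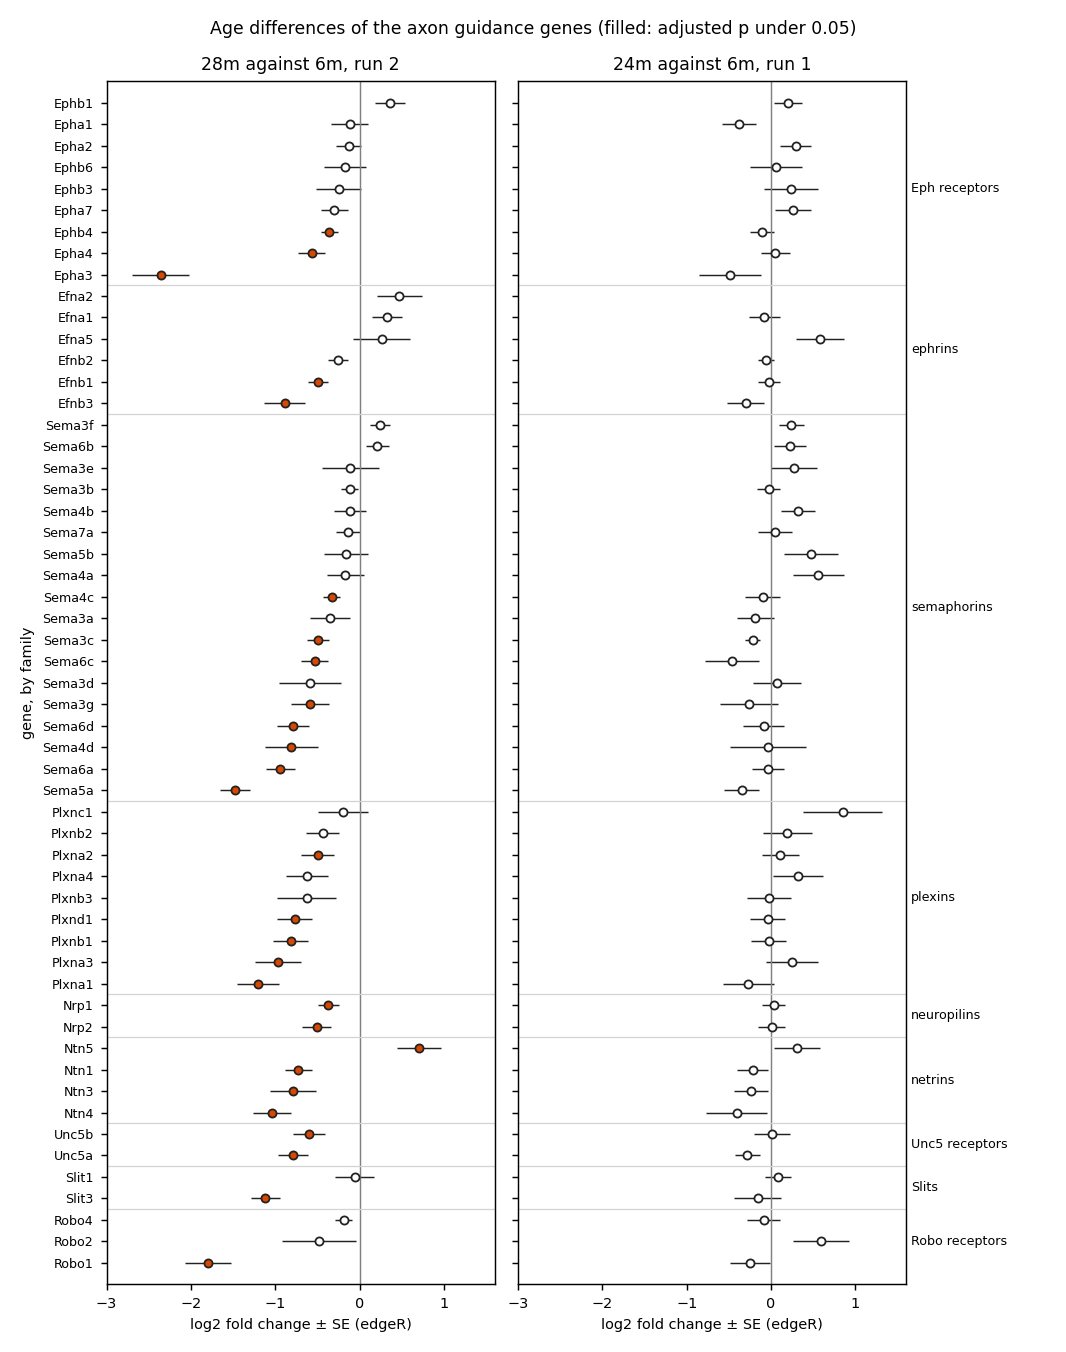
Log2 fold changes with SE of the 55 members tested at 28m, by family, for 28m against 6m in the second run (left) and 24m against 6m in the first run (right). Filled points have an adjusted p under 0.05 in edgeR's quasi-likelihood test. At 28m, 27 filled points lie left of 0 and 1 lies right of it, and at 24m no point is filled. Efna2 was not tested at 24m and has no point on the right.

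The count changed when each library's trend on gene length and GC content was removed. Members are long genes: the 55 tested had a median exonic length of 6493 bases against 4491 for all genes tested, and across all genes the log2 fold change at 28m fell with length (Spearman's rho -0.539 across genes, which are not independent). With the trends on exonic length and GC content removed together, 15 members were lower and 2 were higher, Sema3f and Ephb1, against 17.5% and 20.4% of all genes. The 15 were Epha3, Ephb4, Efnb1, Efnb3, Sema3c, Sema5a, Sema6a, Sema6d, Plxna1, Plxna3, Plxnd1, Ntn4, Unc5a, Slit3 and Robo1, all of them also lower without the correction. The median log2 fold change of the members was then -0.165, and DEGs numbered 3. Length and GC content were not removed one at a time, so their parts in the other 12 calls were not tested.

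The Slit and Robo families held 2 of the DEGs, where 5.7% of all genes were DEGs. Robo1, a receptor through which Slits repel, was at 0.959, 1.89 and 2.74 CPM (lowest, median and highest) in the 6m libraries and at 0.280, 0.525 and 0.801 in the 28m libraries. The groups did not overlap, and Robo1 had fallen by 1.80 on the log2 scale (SE 0.27, adjusted p = 0.000381). Slit3, a ligand that is also made by cells of the vessel wall and connective tissue, went from 10.2, 12 and 20.7 CPM to 4.5, 6.34 and 8.76, again without overlap, a log2 fold change of -1.12 (SE 0.17, adjusted p = 0.000443). Of the 3 Robo receptors tested only Robo1 passed, and of the 2 Slits tested only Slit3, where 22.9% of all genes were called lower. These counts are too small to be told apart from that share. Robo4 gave a log2 fold change of -0.19 (SE 0.10, adjusted p = 0.115) and Robo2 of -0.48 (SE 0.44, adjusted p = 0.369). Robo4 passed when 28m replicate 8, its highest library at 23.7 CPM, was left out (log2 fold change -0.26, adjusted p = 0.0145). The ligand Slit1 gave -0.06 (SE 0.23, adjusted p = 0.844). In the second run Slit2 had too few counts for the edgeR test, with 1 to 15 a library at 6m and 3 to 16 at 28m.

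Among Eph receptors, 3 of the 9 tested had fallen, a share near the 22.9% of all genes called lower, and Epha3 had the lowest log2 fold change of the members tested. Its level was 0.614, 0.709 and 1.93 CPM at 6m and 0.0768, 0.162 and 0.337 CPM at 28m, a log2 fold change of -2.36 (SE 0.34, adjusted p = 0.000347). The 6m value of 1.93 CPM belonged to replicate 2 alone, and the other 6 lay between 0.614 and 0.772. Without that mouse, and in each of the other 14 fits that left out 1 mouse, Epha3 still passed. Epha4, a receptor known for guiding limb motor axons, fell by 0.57 (SE 0.16, adjusted p = 0.00875), and the venous receptor Ephb4 by 0.36 (SE 0.10, adjusted p = 0.00985), from 20.4, 23.8 and 26.2 CPM to 13.2, 19.3 and 22.2. For these receptors the 2 groups overlapped. With the length and GC trend removed Epha3 and Ephb4 were still lower, Epha4 did not pass (-0.33, adjusted p = 0.0968) and Ephb1 was higher (0.61, adjusted p = 0.021). Without that correction Epha1, Epha2, Epha7, Ephb1, Ephb3 and Ephb6 did not pass, with log2 fold changes between -0.30 and 0.36. Ephb4 passed in 15 of 15 fits without 1 mouse, but its call depended on which young libraries were used. With those of the other run it was lost (log2 fold change -0.18, adjusted p = 0.211 in edgeR). It was also lost when replicate 4 of those libraries was left out. Nor did Ephb4 pass in a fit without 6m replicate 2 and 28m replicates 2 and 6.

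Of the ephrins, the ligands of the Eph receptors, 2 of 6 tested had fallen, again a share near that of all genes (22.9%). Both are transmembrane B-class ephrins, Efnb1 by 0.49 (SE 0.12, adjusted p = 0.00427) and Efnb3 by 0.89 (SE 0.24, adjusted p = 0.00703). Efnb1 was at 8.88, 10.8 and 15.3 CPM at 6m and at 6.43, 8.39 and 9.64 at 28m, and 6 of the 8 old mice lay below every 6m mouse. The third B-class ligand, the arterial Efnb2, gave -0.26 (SE 0.12, adjusted p = 0.072). The membrane-anchored A-class ephrins Efna1, Efna2 and Efna5 gave values above 0 that did not pass (0.32, 0.47 and 0.26). Efna1, the most abundant ephrin per length, had 9.16, 11.8 and 15.5 CPM at 6m and 11, 14.2 and 25.9 CPM at 28m (adjusted p = 0.144), and with the length and GC trend removed its log2 fold change was -0.02. The classes were not tested against each other.

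Of the 4 netrins tested 3 had fallen and 1 had risen, and both Unc5 receptors tested had fallen, against 22.9% of all genes called lower and 24.3% higher. Ntn4, a netrin of basement membranes, was at 5.51, 7.98 and 9.14 CPM at 6m and 1.71, 3.92 and 6.24 CPM at 28m, a log2 fold change of -1.04 (SE 0.23, adjusted p = 0.00270). The 28m mice spread from 1.71 to 6.24, and 7 of 8 lay below the whole 6m range. Ntn1, the classical attractant and repellent, fell by 0.73 (SE 0.16, adjusted p = 0.00251), from 13.3, 15.6 and 22.1 CPM to 7.29, 9.27 and 16.1, and Ntn3 fell by 0.79 (SE 0.27, adjusted p = 0.0226). Of their repulsive receptors, Unc5a fell by 0.79 (SE 0.18, adjusted p = 0.00266), with 24.1, 29.6 and 39.2 CPM at 6m against 11.3, 18.2 and 29, and Unc5b by 0.60 (SE 0.19, adjusted p = 0.019). With the length and GC trend removed Ntn4 and Unc5a were still lower, while Ntn1 (-0.44, adjusted p = 0.0584), Ntn3 (-0.59, adjusted p = 0.0826) and Unc5b (-0.33, adjusted p = 0.157) did not pass. Unc5c and Unc5d had too few counts to be tested, and so had the attractive netrin receptor Dcc, which had at most 2 counts in any library.

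Ntn5, a short member of the netrin family, was the single member called higher. Its level was 0.339, 0.584 and 0.811 CPM at 6m and 0.489, 0.950 and 1.46 CPM at 28m, where 6 of 8 mice exceeded every 6m mouse. The log2 fold change was 0.70 (SE 0.26, adjusted p = 0.0340). The call changed with the mice and settings used. It held in 8 of 15 fits with a mouse left out, was lost with the length and GC trend removed (0.54, adjusted p = 0.0929), and 23.4% of its exonic bases overlap exons of Sec1 on the other strand, while the strand setting of the counting was not stated.

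Of the 7 secreted class 3 semaphorins tested 2 had fallen, a share near the 22.9% of all genes, as had both neuropilins that bind them. Sema3c, the most abundant of them, had a narrow range at 6m (62.7, 65.0 and 70.0 CPM) and a wide one at 28m (29.1, 51.2 and 59.1), with no overlap and a log2 fold change of -0.49 (SE 0.13, adjusted p = 0.00761). Sema3g, a semaphorin of endothelium, fell by 0.59 (SE 0.23, adjusted p = 0.0411), but passed in only 5 of the 15 fits without 1 mouse and did not pass with the length and GC trend removed (-0.51, adjusted p = 0.052). Sema3a, Sema3b, Sema3d, Sema3e and Sema3f did not pass, with log2 fold changes from -0.59 to 0.24. Both neuropilins fell, Nrp1 by 0.37 (SE 0.12, adjusted p = 0.021) and Nrp2 by 0.51 (SE 0.17, adjusted p = 0.0209). Nrp1 was at 69.6, 80.9 and 94.5 CPM at 6m and at 45.5, 62.1 and 86.0 at 28m, and with the length and GC trend removed its value was -0.10 (adjusted p = 0.615) and that of Nrp2 -0.11 (adjusted p = 0.551).

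All 9 plexins, the signalling receptors of semaphorins, had log2 fold changes below 0 at 28m, where 49.3% of all genes did, and 5 passed, against 22.9% of all genes called lower. Plxna1, which transmits class 3 and class 6 semaphorin signals, was at 29.1, 31.8 and 40.1 CPM at 6m and 7.83, 11.5 and 27.1 CPM at 28m (log2 fold change -1.21, SE 0.25, adjusted p = 0.00198). All 28m mice lay below all 6m mice, with replicates 4, 6 and 8 at 19.5, 27.1 and 22.1 CPM and the other 5 at 7.83 to 12.1. Plxna3 fell by 0.97 (SE 0.27, adjusted p = 0.00833), the Sema4d receptor Plxnb1 by 0.82 (SE 0.21, adjusted p = 0.00648) and the vascular Plxnd1 by 0.77 (SE 0.21, adjusted p = 0.00771), with Plxnd1 going from 50, 69.3 and 83.3 CPM to 23.4, 39.1 and 62.2. Plxna2 fell by 0.50 (SE 0.19, adjusted p = 0.0418) and passed in 6 of 15 fits without 1 mouse. Plxna4, Plxnb2, Plxnb3 and Plxnc1 did not pass, with values between -0.63 and -0.20. With the length and GC trend removed the 9 no longer shared a direction: Plxna1, Plxna3 and Plxnd1 were still lower, Plxnb1 did not pass (-0.42, adjusted p = 0.0826), Plxna2 was at -0.02 (adjusted p = 0.891) and Plxnc1 at 0.11 (adjusted p = 0.802).

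Of the 11 transmembrane and anchored semaphorins of classes 4 to 7 tested, 6 had fallen, against 22.9% of all genes. Sema5a, which carries thrombospondin repeats and acts as attractant or repellent, was at 4.21, 4.75 and 7.80 CPM at 6m and 1.31, 1.93 and 2.91 CPM at 28m, without overlap. Its log2 fold change of -1.48 (SE 0.18) had the smallest adjusted p of the members (0.000107). Sema6a fell by 0.94 (SE 0.17, adjusted p = 0.000924) and Sema6d by 0.79 (SE 0.19, adjusted p = 0.00408), Sema6d from 28.2, 30.7 and 36.5 CPM to 10.2, 16.8 and 27.7 without overlap. Sema6c, the most abundant member, was at 79.2, 148 and 164 CPM at 6m and 70.8, 106 and 116 at 28m, a fall by 0.53 (SE 0.16, adjusted p = 0.0137) in which the lowest 6m library, replicate 3, lay within the 28m range. Sema4c fell by 0.33 (SE 0.10, adjusted p = 0.0156). Sema4d fell by 0.81 (SE 0.31, adjusted p = 0.0387), with a gap inside the old group: replicates 4, 6 and 8 were at 73.0, 77.7 and 72.4 CPM, within the 6m range of 69.8 to 84.8, and the other 5 at 16 to 41.5. The Sema4d call held in 4 of 15 fits without 1 mouse. With the length and GC trend removed Sema5a, Sema6a and Sema6d (-0.47, adjusted p = 0.0123) were still lower, while Sema6c (-0.27, adjusted p = 0.0967), Sema4c (-0.20, adjusted p = 0.141) and Sema4d (-0.61, adjusted p = 0.0608) did not pass. Sema4a, Sema4b, Sema5b, Sema6b and Sema7a did not pass, with log2 fold changes from -0.17 to 0.21.

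**Figure D3:**
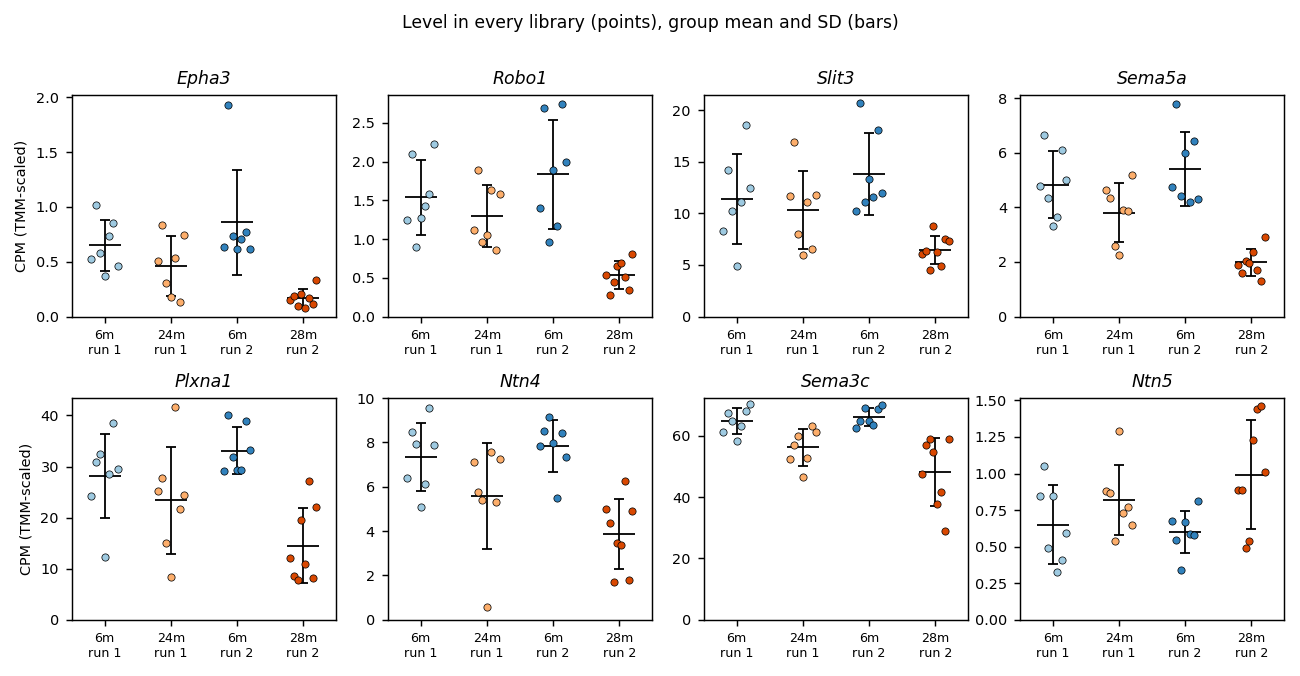
Level in CPM of the 6 DEGs, of Sema3c and of Ntn5 in each of the 29 libraries (points) with the group mean and SD (bars), in the order 6m and 24m of the first run, then 6m and 28m of the second run. All 28m points of Epha3, Robo1, Slit3, Sema5a, Plxna1 and Sema3c lie below all 6m points of the same run, while the 24m points overlap those of 6m.

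Upstream sequences of the 3 members with the largest falls, and of Ntn5, are shown because the first fell together and Ntn5 moved the other way. They are the 150 bases before the RefSeq start on GRCm38.p6, with GC boxes (GGGCGG or its reverse complement CCGCCC) in capitals. The start given for Robo1 lies inside the longer gene model of the annotation used for lengths.
Epha3 (chr16:63864176-63864325, minus strand): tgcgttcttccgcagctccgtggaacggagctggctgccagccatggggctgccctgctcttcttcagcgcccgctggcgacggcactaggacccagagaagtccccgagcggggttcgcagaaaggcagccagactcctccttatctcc
Robo1 (chr16:72662999-72663148, plus strand): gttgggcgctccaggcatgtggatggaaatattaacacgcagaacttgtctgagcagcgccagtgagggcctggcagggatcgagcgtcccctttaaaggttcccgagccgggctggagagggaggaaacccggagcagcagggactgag
Sema5a (chr15:32244663-32244812, plus strand): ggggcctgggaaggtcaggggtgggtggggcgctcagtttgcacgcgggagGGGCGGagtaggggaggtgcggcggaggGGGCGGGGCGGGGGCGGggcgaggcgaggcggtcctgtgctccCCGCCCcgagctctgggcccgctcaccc
Ntn5 (chr7:45683872-45684021, plus strand): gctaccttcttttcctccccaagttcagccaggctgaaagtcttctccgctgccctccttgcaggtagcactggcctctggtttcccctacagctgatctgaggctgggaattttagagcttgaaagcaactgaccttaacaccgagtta

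The stretches differed in these letters. Sema5a held 5 GC boxes, some of them overlapping, and 15 CG dinucleotides in 79.3% G and C. Epha3 and Robo1 held 0 GC boxes with 11 and 8 CG dinucleotides, and Ntn5 held 0 with 2. Among the 23 members lower at 28m that have such a sequence, 82.6% held a GC box in these 150 bases. Among genes with such a sequence it was held by 74.5% of the 47 members tested, 63.5% of 2173 genes called lower, 58.1% of 9316 genes tested and 31.3% of all 27025 genes with a sequence. The motif is thus common among expressed genes, and a match describes the letters only.

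Members that the filter left out of the test at 28m numbered 13, the 4 near 0 and Efna3, Efna4, Epha5, Ephb2, Sema4f, Sema4g, Slit2, Unc5c and Unc5d. DESeq2, run without that filter but with its own filtering by mean count, called 4 of them, against 35.4% of all genes in that fit. The 4 near 0 got no adjusted p there, and the 35.4% counts such genes as not called. Epha5 was listed at 0 to 1 count in the 6m libraries sequenced with them and at 0 to 5 counts in the 28m libraries, where 5 of 8 old mice had more than 1 count and 3 had more than 3 (adjusted p = 0.0137). Sema4f, a transmembrane semaphorin, was at 0.0564, 0.168 and 0.573 CPM at 6m and 0.147, 0.613 and 0.937 CPM at 28m, a DESeq2 log2 fold change of 1.38 (SE 0.48, adjusted p = 0.0131). Ephb2 gave -1.14 (SE 0.39, adjusted p = 0.0106) and Sema4g -0.93 (SE 0.39, adjusted p = 0.0435) in the same fit. Apart from Ephb2, these were singled out after their values were seen.

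The 28m mice differed in how far their members had moved. The median log2 ratio of the members to the 6m mean was -0.779 in replicate 3 and between -0.488 and -0.327 in replicates 1, 2, 5 and 7, and it was -0.206, -0.251 and -0.157 in replicates 4, 6 and 8. Replicate 3 had 37 of 55 members below every 6m library (37.0% of all genes tested were), and replicate 8 had 17 of 55 (19.6% of all genes). In all 8 old mice the share of members below the young range was above the share of all genes, and the share above it was under that of all genes. The libraries with the larger falls were also those with the stronger length trend, whose correlation with exonic length was -0.532 to -0.486 in replicates 1, 2, 3, 5 and 7 and -0.306 to -0.175 in the others. Another fit left out 6m replicate 2 and 28m replicates 2 and 6, chosen on earlier results that are not shown here. In it 20 members were lower and 0 higher, against 18.9% and 22.2% of all genes. In the medians above, 28m replicates 2 and 6 were not at the ends of their group.

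**Figure D4:**
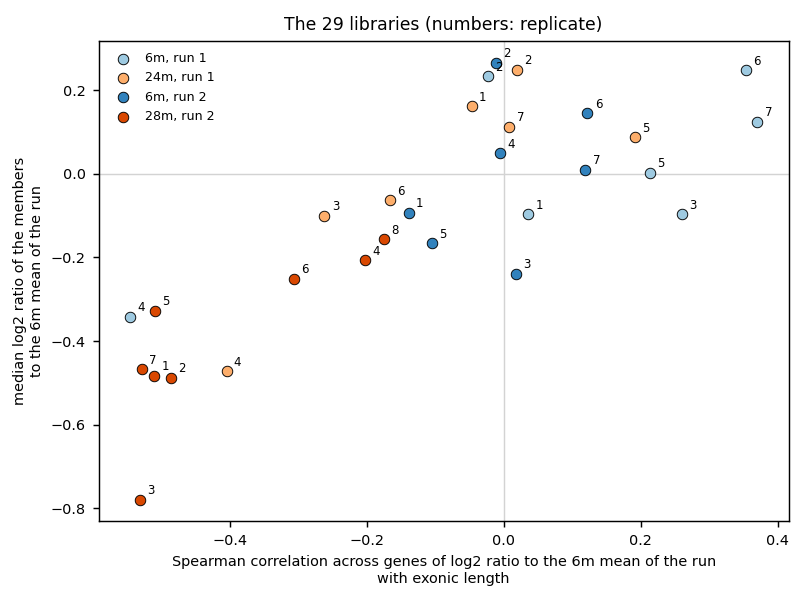
Each point is 1 of the 29 libraries, numbered by replicate. The horizontal axis is the Spearman correlation across genes between exonic length and the library's log2 ratio to the 6m mean of its run, and the vertical axis is the median log2 ratio of the members to the same mean. The 28m libraries lie at the lower left, with 6m replicate 4 and 24m replicate 4 of the first run near them.

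Markers of other cell types were compared with the same test, in which 22.9% of all genes were called lower and 24.3% higher. Of the endothelial markers, 4 of 8 were lower at 28m (Pecam1, Cdh5, Tek and Tie1) and 2 higher (Cldn5 and Egfl7), and their summed level was 378 to 436 CPM at 6m and 297 to 415 at 28m. Pericyte and smooth muscle markers were lower in 4 of 6 (295 to 371 CPM against 183 to 316) and fibroblast markers in 4 of 7 (557 to 2830 against 331 to 1200). Of the myofibre markers, 2 of 6 were lower (Myh4 and Ttn) and 1 was higher (Tnnt3). Schwann cell markers summed to 32.7 to 47.2 CPM at 6m and 27.8 to 51.1 at 28m. Satellite cell markers were lower in 1 of 4 (Pax7), and those of denervated fibres higher in 6 of 10, among them the fetal acetylcholine receptor subunit Chrng by 3.52 (SE 0.81, adjusted p = 0.00322). In tendon 1 of 5 was higher (Scx), and 0 of 4 immune, 0 of 4 adipocyte and 0 of 1 erythrocyte markers tested passed edgeR's threshold. Hba-a1 was at 0 in every library. After removal of the length and GC trend Pecam1 (-0.09, adjusted p = 0.417), Cldn5 (0.36, adjusted p = 0.0712), the pericyte marker Cspg4 (-0.10, adjusted p = 0.629) and the fibroblast collagen Col3a1 (-1.16, adjusted p = 0.134) did not pass. Nor did the myofibre markers Ttn (0.1, adjusted p = 0.208) and Tnnt3 (0.07, adjusted p = 0.474), while the other marker calls given here still passed. Calls in 1 of 4 satellite, 1 of 5 tendon, 2 of 6 and 1 of 6 myofibre and, for higher levels, 2 of 8 endothelial markers are shares near those of all genes. The part of these cell types in the results on the members was not tested.

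Other parts of the guidance pathway were compared with the same test, in which 22.9% of all genes were called lower and 24.3% higher. With the length and GC trend removed, these shares were 17.5% and 20.4%. Of 21 tested cues and receptors outside the 9 families, 10 were lower at 28m and 0 higher, with a median log2 fold change of -0.38. They included the netrin and repulsive guidance receptor Neo1 (-0.62, SE 0.14, adjusted p = 0.0032), the VEGF receptor Kdr (-1.29, SE 0.19, adjusted p = 0.000389) and its ligand Vegfa (-0.53, SE 0.12, adjusted p = 0.00278). With the length and GC trend removed, 11 were lower, of which 8 were among the 10, and 1, Nrcam, was higher. Of 49 tested genes that act downstream, 22 were lower and 7 higher, and with the trend removed 10 and 7, of which 10 and 4 were among the former. With the trend removed, 10 of 49 lower was near the share of all genes, and 7 of 49 higher was under that share in both fits. Lower were the cytoskeletal effector Dpysl3 (-0.91, SE 0.22, adjusted p = 0.00415) and the kinase Rock2 (-0.66, SE 0.14, adjusted p = 0.0021), and higher were Dpysl2 (0.82, SE 0.27, adjusted p = 0.0191), Pak1, Cfl1, Cfl2, Cdc42, Rras and Cdk5. At 24m none of either list passed in edgeR.

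At 24m, no member passed in edgeR. Of 56 members tested, 0 had an adjusted p under 0.05 in edgeR's quasi-likelihood test (0.084% of 13103 genes did), limma-voom also gave 0, and 1 had an unadjusted p under 0.05, against 11.8% of all genes. The median log2 fold change of the members was -0.022, with 30 below 0 and 26 above. Without 24m replicate 4 it was 0.087, with 19 below and 37 above, and without both libraries that stood apart 0.021, with 25 below and 31 above. The smallest p was that of Sema3c, at 58.2, 64.7 and 70.3 CPM at 6m and 46.6, 57.0 and 63.3 at 24m (log2 fold change -0.22, SE 0.09, adjusted p = 0.399). Next came the ephrin Efna5 (0.58, SE 0.28, adjusted p = 0.434) and the receptor Epha1 (-0.38, SE 0.20, adjusted p = 0.453), in which the groups overlapped. Without both libraries that stood apart, Efna5 was at 0.26 and still did not pass. DESeq2 called 1 member, Sema4f, with 0.0893, 0.180 and 0.394 CPM at 6m and 0.226, 0.558 and 1.5 CPM at 24m (log2 fold change 1.74, SE 0.51, adjusted p = 0.0498), against 1.13% of all genes. Replicates 4 and 5 were at 1.5 and 1.45 CPM and the other 5 mice at 0.226 to 0.61. Without both libraries that stood apart the Sema4f call was lost (1.35, SE 0.53, adjusted p = 0.115 in DESeq2), and DESeq2 then called 0 members, against 4.1% of all genes. Without both libraries that stood apart, edgeR called 0 members and 121 genes in all.

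None of the DEGs of 28m passed at 24m in edgeR. Epha3 gave -0.49 (SE 0.37), Robo1 -0.25 (SE 0.24), Sema5a -0.35 (SE 0.21), Plxna1 -0.27 (SE 0.30), Slit3 -0.16 (SE 0.28) and Ntn4 -0.41 (SE 0.36). Without both libraries that stood apart, Ntn4 was at -0.28 and still did not pass. Within 24m, replicate 4 stood low in several members: Ntn4 was at 0.559 CPM there and at 5.32 to 7.58 in the other 6 mice, and Sema6c at 16.5 CPM against 73.9 to 128. Nrp1 was high in the same library, at 134 CPM against 67.9 to 77.8. In that mouse 28 of 56 members lay below every 6m library, where 36.5% of all genes did, and in the other 6 mice between 1 and 11 members did, where 7.81% to 25.1% of all genes did. Members above every 6m library numbered 13, 17 and 13 in replicates 1, 2 and 5 (8.98%, 20.6% and 25.4% of all genes). They numbered 3, 6, 6 and 5 in replicates 3, 4, 6 and 7 (8.3%, 37.3%, 8.46% and 13.7% of all genes).

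Whether the members changed more by 28m than by 24m was tested as the difference between the age effects, each against the 6m libraries of its own run. The edgeR and DESeq2 fits counted both libraries of each 6m mouse as separate mice. Their p-values thus do not measure the spread between mice alone. In edgeR 0 of 59 members passed after adjustment, as did 0 of all genes, while 20 members had an unadjusted p under 0.05, all with the lower value at 28m, against 12% of all genes in either direction. The smallest were Robo1 (-1.54, SE 0.36, adjusted p = 0.398), Sema5a (-1.11, SE 0.28, adjusted p = 0.398), Epha3 (-1.86, SE 0.51, adjusted p = 0.398) and Sema6a (-0.89, SE 0.25, adjusted p = 0.398). DESeq2 called 0 members with 21 under the unadjusted p (9.23% of all genes), and limma-voom with the mouse as a replicate block called 0 with 26 (21.3% of all genes). With the length and GC trend removed 10 members were under it (9.1% of all genes), and with upper-quartile scaling 14 (12.4%). Leaving out 24m replicate 4 gave 1657 genes and 10 members, all lower, against 3.36% of all genes called lower: Efnb1, Epha3, Plxna3, Plxnb1, Plxnd1, Robo1, Sema5a, Sema6a, Sema6d and Slit3. Each other fit without 1 library gave 0 members.

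The repeat libraries of the same 7 mice at 6m measured how far members moved with no difference in age. Of 55 members tested in edgeR, 0 passed and 1 had an unadjusted p under 0.05, against 2.77% of all genes. In DESeq2, without the filter, 0 of 68 passed and 2, Ephb4 and Sema6a, had an unadjusted p under 0.05, against 2.12% of all genes. The member in edgeR was Ephb4, 0.18 higher on the log2 scale in the second run (SE 0.08, adjusted p = 0.875 in edgeR). With the mouse as a replicate block, the fit for paired libraries, 0 members passed and 6 had an unadjusted p under 0.05, all higher in the second run, against 8.17% of all genes. The median of the members was 0.127 higher in the second run, and 45 of 55 were above 0, against a median of 0.001 for all genes. Without 6m replicate 4 the median of the members was 0.058, with 42 above 0. With the first run's 6m libraries in place of those sequenced beside the 28m mice, 16 members were lower and 1, Efna2, was higher, against 11% and 12% of all genes. Without 6m replicate 4 of that run, 21 were lower and 2 higher, against 17.8% and 19.1%.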

How the data were processed

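RNA of the TA was sequenced in 29 libraries of 22 mice. Per the labels and methods, the authors aligned single-end reads to mm10 with STAR 2.5.4b and counted reads per gene, and the deposited counts are raw whole numbers for 22537 symbols. The strand setting is not given in the sources used here. Groups came from the labelled age and run, and 0 columns were left without a sample. The series text gives other group sizes for 24m and 28m than the sample labels, which were used.

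Counts were analysed with edgeR 4.0.16 (filterByExpr, TMM, quasi-likelihood F test, Benjamini-Hochberg over all genes tested, threshold 0.05, and for DEGs a log2 fold change of 1 or more in size) in R 4.3.3, and the code was tested on simulated data. Only the groups compared entered a fit, and the difference between age effects used all libraries with age and run. Alternatives were DESeq2 1.42.0 without filterByExpr, limma-voom of limma 3.58.1, other scalings, filters and 6m libraries of the other run. Length and GC offsets, each library left out and a replicate block for the mouse were also used. DESeq2's own filtering by mean count was left on. Genes to which it gave no adjusted p count as not called in its shares of all genes. CPM values were scaled by TMM over all libraries, and library deviations used log2 CPM with a prior count of 2. Exonic length and position came from GENCODE on GRCm38 (20202 symbols matched, 1897 by synonym, 438 unmatched), and upstream sequences from RefSeq on GRCm38.p6, which held 59 members. Plots used matplotlib 3.10.9 and Python 3.11.15.

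Each 6m mouse is paired between runs by its sample title, and its deviations from the group means correlated by 0.218 to 0.814. Within a run, p-values measure the spread between mice.

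Members were chosen by symbol. Those described with full values are DEGs, the 3 smallest p at 24m, members higher at 28m, per family the highest level per length and the smallest p, genes of the study's axon guidance receptor term, and ligand and receptor pairs. Others are named in counts or after their values were seen. The members, the lists (other guidance cues and receptors, downstream signalling, and markers of myofibre, endothelial, pericyte and smooth muscle, fibroblast, tendon, Schwann, satellite, immune, adipocyte, erythrocyte, neuron and denervated fibre) were chosen with earlier results of these data known. The calls of the Schwann list are not reported here.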

Additional observations from a re-analysis of the deposited data

Results flagged for a closer look

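Of 88 groups of libraries examined for a single library far from the rest, 15 held one, where chance gives about 1 in 20. The groups share libraries and are not independent. The 24m replicate 4 accounted for 9 of them. It was the lowest of its group for Efnb1 (6.78 CPM, others 10 to 11.7), Ephb4 (11.6, others 19.1 to 22.7), Ntn4 (0.559, others 5.32 to 7.58) and Plxnd1 (29.3, others 50.1 to 72.9). It was also the lowest for Robo4 (6.99 CPM, others 14.4 to 23.8), Sema6c (16.5, others 73.9 to 128) and Unc5a (15.9, others 22.3 to 26.8), and the highest for Efna5 (1.61, others 0.505 to 0.654) and Nrp1 (134, others 67.9 to 77.8). The 6m replicate 4 of the first run was the lowest of its group for Ephb2 (0.211 CPM, others 0.625 to 1.18), Nrp2 (9.25, others 14.8 to 18.9) and Plxna1 (12.3, others 24.3 to 38.6). In the second run, 6m replicate 2 was the highest for Epha3 (1.93 CPM, others 0.614 to 0.772), 6m replicate 5 the lowest for Ntn4 (5.51, others 7.35 to 9.14) and 28m replicate 7 the highest for Ephb2 (0.637, others 0.206 to 0.340).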

How the results depend on the processing

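At 28m the members called numbered 28, with 27 lower, 1 higher and 6 DEGs. Against the 6m libraries of the other run they numbered 17, with 16 lower and 3 DEGs, and with the length and GC trend removed 17, with 15 lower and 3 DEGs. Leaving out 1 mouse gave 24 to 31 members called, 23 to 30 lower, 0 to 2 higher and 5 to 9 DEGs. At 24m DESeq2 gave 1 member called, also a DEG, in place of 0, and leaving out 1 library gave 0 to 0. For the difference between the age effects, leaving out 1 library gave 0 to 10 members, the 10 without 24m replicate 4, and limma-voom with the paired replicate block gave 0. Between the 6m runs the replicate block gave 0 members called, as did each fit without 1 mouse. The blocked fits changed no call. The other values under alternatives were smaller counts and single members named by rule, such as DEGs and the smallest p. Of these, 2106 kept their call or size, 27 lost and 7 gained a call in the same direction. A further 28 counts or medians moved, and no called value changed its sign. Members outside that rule, such as Sema4d, Sema3g and Plxna2, are not in this tally, and their lost calls are given above. Values that were not called did turn: Efna1 at 28m ran from 0.40 to -0.02 and the 24m median of the members was -0.022, 0.019 in DESeq2 and 0.087 without 24m replicate 4. Over all genes, 28m calls numbered 6140, with 2981 against the other run's 6m libraries and 4820 without its replicate 4, 24m calls numbered 11, with 215 in DESeq2, 46 against the other run's 6m libraries, 4 with at least 10 counts in every library, 121 without both libraries that stood apart (763 in DESeq2) and 4 to 30 with 1 library left out, and calls for the difference 0, with 2 in DESeq2 and 0 to 1657. The alternatives without replicate 4 of the other-run 6m libraries, without both libraries that stood apart (in edgeR and DESeq2) and without 3 mice were chosen after seeing the data. Calls at few counts, such as those of Epha3 and Ntn5, are limited by depth, members under 3 counts cannot be compared, and whole muscle does not separate cell types.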
